A study of Mus musculus with 20 samples.

Results

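The transcripts of 6 subunits of the N-methyl-D-aspartate (NMDA) receptor, *Grin1*, *Grin2a*, *Grin2b*, *Grin2c*, *Grin2d* and *Grin3a*, were followed in the developing mouse brain. They were taken by gene symbol and make up 6 of the 47729 genes in each library's count table. The libraries came from cortex and hippocampus of 10 C57Bl/6J pups at postnatal day 7 (P7), 5 wild-type (WT, mice 1 to 5) and 5 Ube3aOE (mice 6 to 10). Ube3aOE mice carry extra copies of the entire *Ube3a* gene on a bacterial artificial chromosome transgene, in 1 line, and thus overexpress UBE3A, a ubiquitin ligase. Each mouse gave both regions, so that 20 libraries fell into 4 groups of 5, and no sample carried a further treatment. The study compared the genotypes to learn which transcripts respond to UBE3A overdosage, as occurs in Dup15q syndrome.

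NMDA receptors are cation channels. Every receptor contains GluN1, the obligatory subunit encoded by *Grin1*, together with GluN2 subunits (*Grin2a* to *Grin2d*) or GluN3 subunits (*Grin3a*) that set channel kinetics, magnesium block and calcium permeability. Receptors of GluN1 and GluN2 are gated by glutamate together with a co-agonist, and depolarization of the membrane relieves their magnesium block. In the postnatal forebrain, GluN2B and GluN2D are known as early subunits, GluN2A rises as synapses mature, GluN2C is best known from cerebellar granule cells and glia, and GluN3A marks immature synapses.

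The relatedness of the subunit genes matters for how reads were assigned to them, and a coding stretch is shown for that reason for *Grin1*, *Grin2c* and *Grin3a*, which stand for the GluN1, GluN2 and GluN3 families. The stretches come from the longest protein-coding transcript of each gene (GENCODE M21, build GRCm38, all on the minus strand). They lie at chr2:25297184-25297240 (exon 15 of 21 of *Grin1*), chr11:115253734-115253790 (exon 11 of 15 of *Grin2c*) and chr4:49770455-49770511 (exon 3 of 9 of *Grin3a*). Capitals mark the 9 codons of the conserved motif in the third membrane segment, which lines the channel gate.
Grin1: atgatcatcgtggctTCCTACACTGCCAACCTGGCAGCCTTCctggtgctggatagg
Grin2c: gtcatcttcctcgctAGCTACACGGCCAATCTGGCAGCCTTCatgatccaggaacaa
Grin3a: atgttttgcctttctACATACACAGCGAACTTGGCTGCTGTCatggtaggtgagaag
Of the 27 capital bases, *Grin1* and *Grin2c* shared 23, *Grin1* and *Grin3a* 19, and *Grin2c* and *Grin3a* 18. All 9 codons specified the same amino acids in *Grin1* and *Grin2c*, and 7 of the 9 did so between *Grin3a* and either of them. Even this stretch therefore separated the 3 genes at the level of bases, and no window of 50 bases from the transcripts of any of the 6 members occurred in the transcripts of another member. For *Grin2a*, 2079 of 17972 such windows (11.6%) also occurred in another gene, of which 2076 matched the processed pseudogene *Gm7328* (not analysed here), so that reads from those windows cannot be assigned with certainty. Of the antisense genes that overlap member exons, *Grin1os* held 0 to 2 reads per library and *Gm26653*, in *Grin2b*, 2 to 15, whereas *Gm45441*, in *Grin2d*, was not analysed here.

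The libraries held 14191093 to 16752326 reads on genes. *Ube3a*, which checks the labels, lay between 54.4 and 76.8 CPM (read counts scaled to library size, normalised by TMM) in the WT libraries and between 129.6 and 195 CPM in the Ube3aOE libraries (log2 fold change 1.31 ± 0.11 SE in cortex and 1.32 ± 0.11 SE in hippocampus). All 6 hippocampus markers tested were higher in hippocampus and 4 of 6 neocortex markers were lower there. In 2 WT mice, sex-linked transcripts went against the labelled sex. Several libraries also held transcripts of neighbouring tissue. The summed level of 6 thalamus markers was 502, 609 and 1195 CPM in the hippocampus libraries of mice 4, 7 and 10, against 133 to 222 CPM in the other 7. Striatum markers summed to 516 CPM in the hippocampus library of mouse 9 (42.2 to 67.4 CPM in the other 9), and choroid plexus markers to 1950.0 CPM in mouse 7 and 345 CPM in mouse 9 (8.33 to 32.4 CPM in the other 8). The cortex libraries of mice 8 and 9 held 204 and 186 CPM of 6 hippocampus markers, against 69.7 to 98.8 CPM in the other 8. These are bulk samples, in which fewer cells of a type and less RNA per cell cannot be told apart.

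Per kilobase of merged exons, the unit that permits a comparison between genes, *Grin1* was the most abundant and *Grin2c* the least abundant member in all 4 groups. In cortex (n = 10 libraries), the level was 31.7 ± 3.23 (SD) CPM per kb for *Grin1*, 19.6 ± 3.87 for *Grin2b*, 11.3 ± 1.80 for *Grin3a*, 5.72 ± 0.647 for *Grin2d*, 1.69 ± 0.422 for *Grin2a* and 0.328 ± 0.186 for *Grin2c*. In hippocampus (n = 10), it was 34.0 ± 2.65 CPM per kb for *Grin1*, 14.3 ± 3.95 for *Grin2b*, 16.2 ± 4.13 for *Grin3a*, 5.44 ± 1.37 for *Grin2d*, 2.1 ± 0.350 for *Grin2a* and 1.14 ± 0.273 for *Grin2c*. In both cortex groups each neighbouring pair in this order was separated, with no overlap between the ranges of 5 libraries. In both hippocampus groups *Grin2b* and *Grin3a* overlapped, with a ratio of means of 1.02 in favour of *Grin2b* in WT and of 1.28 in favour of *Grin3a* in Ube3aOE, and their order there is not resolved. With the longest coding transcript as the length, *Grin3a* ranked above *Grin2b* in WT hippocampus as well.

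**Figure D1:**
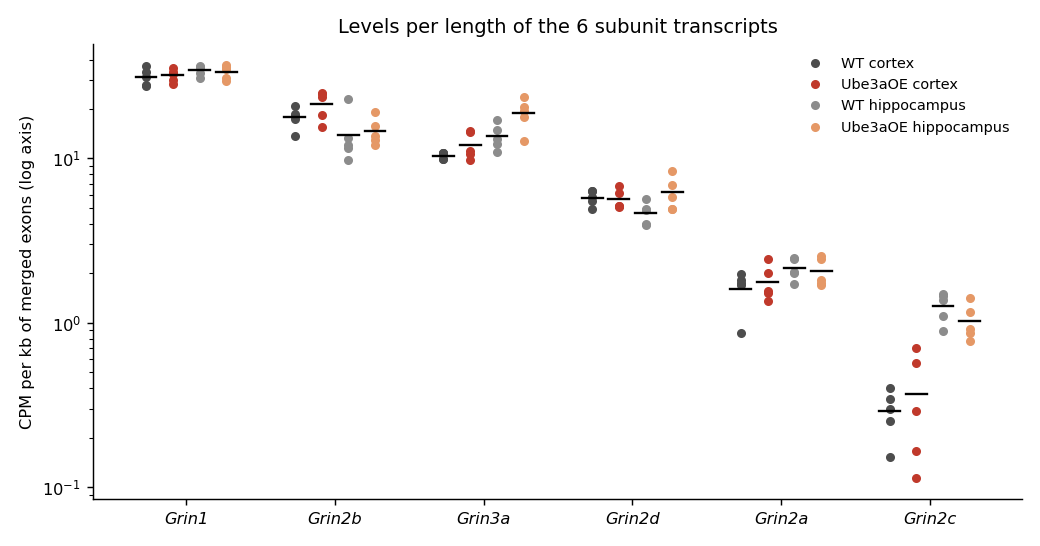
Level of each subunit transcript in CPM per kb of merged exons (log axis), by group. Each point is 1 library and the bar is the group mean (n = 5). *Grin1* lies at 27.5 to 37.2 in all libraries, *Grin2b* and *Grin3a* overlap in hippocampus, and *Grin2c* is at 0.113 to 0.699 in cortex and 0.779 to 1.51 in hippocampus.

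Within the summed GluN2 transcripts (per kb), *Grin2b* held the largest share in every library, 64.8% to 76.5% in cortex and 51.5% to 75.4% in hippocampus. *Grin2d*, the other early subunit, held 15.6% to 28.3% in cortex and 16.0% to 36.3% in hippocampus. *Grin2a*, the subunit of maturing synapses, reached 4.17% to 7.30% in cortex and 5.70% to 12.3% in hippocampus. At P7 the GluN2 pool of both regions was thus mostly *Grin2b* and *Grin2d*. The GluN2 sum amounted to 0.868 ± 0.128 (SD, n = 10) of the *Grin1* level in cortex and 0.679 ± 0.119 in hippocampus. This share depends on the length used. *Grin1* has 9700 bases of merged exons but 4276 in its longest coding transcript, against 24842 and 24060 for *Grin2b*. Per kb of that transcript, *Grin1* stood at 71.9 CPM in cortex and 77.2 CPM in hippocampus, and *Grin2b* at 20.3 and 14.8 CPM. The share would then be smaller.

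Between regions, *Grin2c* and *Grin3a* were higher and *Grin2b* was lower in hippocampus, whereas *Grin1*, *Grin2a* and *Grin2d* did not pass the test. The test was edgeR's quasi-likelihood test over all 20 libraries, hippocampus against cortex averaged over the genotypes, with Benjamini-Hochberg adjustment over 15661 genes and a threshold of 0.05. It did not pair the libraries of a mouse, and pairing by mouse was run as an alternative. In this comparison 50.9% of all genes tested were called, so that 3 of 6 members is the share found among genes in general. The individual sizes and their stability are therefore described for each subunit.

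**Figure D2:**
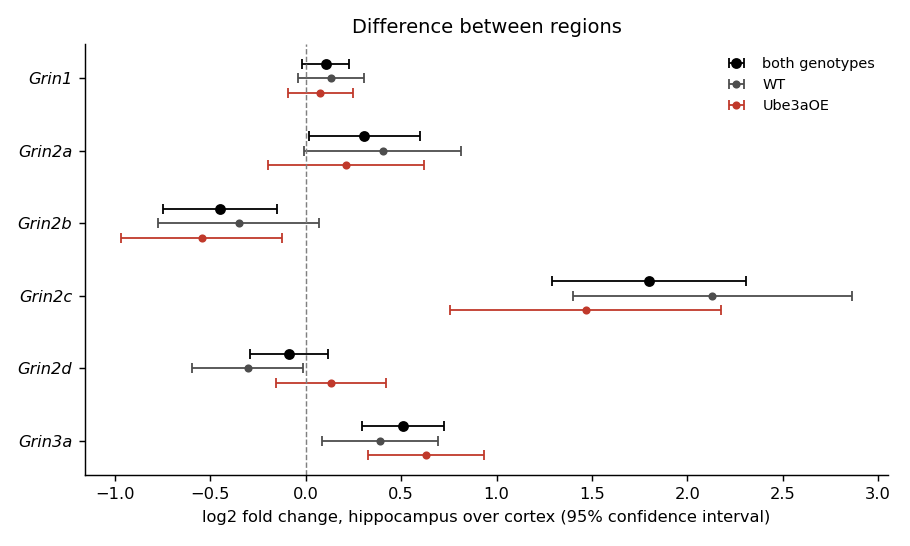
Log2 fold change of each member, hippocampus over cortex, with its 95% confidence interval, for both genotypes together (n = 10 mice) and for each genotype (n = 5). *Grin2c* stands at 1.80, *Grin3a* at 0.51 and *Grin2b* at -0.45 in the joint estimate.

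*Grin1* ranged from 267 to 354 CPM in cortex and from 289 to 361 CPM in hippocampus. It was higher in hippocampus in 8 of 10 mice, by a log2 fold change of only 0.10 ± 0.058 (SE, edgeR adjusted *P* = 0.148). With the mouse as a replicate block the same difference (0.11) passed the threshold (adjusted *P* = 0.0307), and it did not when the dependence of counts on gene length and GC content was also removed (adjusted *P* = 0.207).

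*Grin2a*, the subunit of the mature receptor, was read at 32.6, 15.6, 31.1, 30.3 and 35.3 CPM in cortex of WT mice 1 to 5, and at 24.2, 27.1, 27.9, 36.0 and 43.8 CPM in cortex of Ube3aOE mice 6 to 10. In hippocampus it was at 44.3, 31.1, 36.1, 36.3 and 44.0 CPM in WT and at 45.6, 30.4, 44.0, 32.8 and 31.2 CPM in Ube3aOE. The regions overlapped. Of the 10 mice, 8 were higher in hippocampus, the exceptions being Ube3aOE mice 9 and 10. The log2 fold change was 0.31 ± 0.14 (SE, edgeR adjusted *P* = 0.0726). The call depended on the libraries and on the setting. *Grin2a* passed without mouse 10 (0.41, adjusted *P* = 0.0218), without all 4 hippocampus libraries above (0.46, adjusted *P* = 0.0343) and with the mouse as a replicate block and the dependence on length and GC content removed (0.47, adjusted *P* = 0.00309), but not without the 3 hippocampus libraries high in thalamus markers (0.40, adjusted *P* = 0.0513).

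*Grin2b*, the early synaptic subunit, was read at 435, 342, 461, 453 and 519 CPM in cortex of WT mice and at 385, 459, 588, 624 and 615 CPM in cortex of Ube3aOE mice. In hippocampus it was at 329.8, 569, 288, 244 and 300.2 CPM in WT and at 342, 322, 475, 391 and 300.6 CPM in Ube3aOE. It was lower in hippocampus in 9 of 10 mice, and WT mouse 2, at 569 CPM, was the exception. The log2 fold change was -0.45 ± 0.14 (SE, edgeR adjusted *P* = 0.0132). The call was lost without the 3 hippocampus libraries high in thalamus markers (-0.32, adjusted *P* = 0.0915), without all 4 (-0.31, adjusted *P* = 0.152) and without the 2 cortex libraries high in hippocampus markers (-0.38, adjusted *P* = 0.0562). A dependence of read counts on the length and GC content of genes, estimated in each library, moved with these values. For a gene such as *Grin2b* it stood at -0.43 to -0.35 (log2) in hippocampus of WT mice 3 to 5 and at 0.24 to 0.38 in cortex of Ube3aOE mice 8 to 10. With that dependence removed and the mouse as a replicate block, the difference shrank to -0.19 (adjusted *P* = 0.0434).

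*Grin2c*, the rarest member, had 20, 23, 31, 12 and 24 reads in cortex of WT mice and 23, 13, 59, 47 and 9 reads in cortex of Ube3aOE mice. In hippocampus it had 118, 73, 90, 132 and 126 reads in WT and 119, 65, 74, 91 and 77 reads in Ube3aOE. No hippocampus library lay as low as the highest cortex library, whereas the CPM ranges of the other members overlapped between the regions. How many genes in general separate in this way was not counted. All 10 mice were higher in hippocampus, 3.48-fold in the joint estimate (log2 1.80 ± 0.24 SE, edgeR adjusted *P* = 4.4e-06). The highest cortex values, in mice 8 and 9, belonged to the libraries that held hippocampus markers. Without these 2 libraries the log2 fold change was 2.28 (adjusted *P* = 2e-08). It was 1.84 without the 4 hippocampus libraries above. Of 8 astrocyte markers, 6 were higher and 1 was lower in hippocampus, with summed levels of 1247 to 2038 CPM in cortex and 1969 to 2572 CPM in hippocampus. Markers of other cells were also called. Of 6 excitatory neuron markers, 5 were higher and 1 was lower. *Nrgn* had lower medians in hippocampus (1166 CPM in WT, 901 CPM in Ube3aOE) than in cortex (1758 and 1690 CPM), and *Slc17a6* is also on the thalamus list. For microglia, 4 of 6 markers were higher, and for the oligodendrocyte lineage 4 of 8. Of 10 GABAergic interneuron markers, 3 were higher and 1 was lower (median log2 fold change -0.17). Of 6 cerebellar granule cell markers, 4 were tested and 3 were higher (median log2 fold change 1.78, against 0.42 for astrocytes). That list did not rise as a whole. *Gabra6* reached at most 0.12 CPM and *Barhl1* at most 0.32 CPM in any library, and *Cbln3* had medians of 1.42 to 1.65 CPM in the 4 groups. *Neurod1*, *Zic1* and *Zic2* had higher medians in hippocampus, and *Zic1* spread up to 106 CPM in WT and 218 CPM in Ube3aOE hippocampus (medians 16.3 and 40.0 CPM). The part of any of these cells in the *Grin2c* difference was not tested.

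*Grin2d*, the other early subunit, was read at 42.0, 38.7, 33.0, 36.5 and 42.1 CPM in cortex of WT mice and at 45.1, 33.7, 34.4, 34.2 and 41.1 CPM in cortex of Ube3aOE mice. In hippocampus it was at 32.8, 32.3, 26.0, 37.9 and 26.6 CPM in WT and at 32.6, 38.9, 32.9, 46.1 and 56.0 CPM in Ube3aOE. The regions overlapped and the sign varied between mice, with 4 of 10 higher in hippocampus (log2 fold change -0.087 ± 0.098 SE, edgeR adjusted *P* = 0.484). Of these 4, mice 4, 7 and 10 carried the thalamus markers and mouse 9 the striatum markers. These are the 4 hippocampus libraries left out after seeing the data, so the fit without them cannot test the direction. It placed *Grin2d* lower in hippocampus (-0.29 ± 0.083 SE, edgeR adjusted *P* = 0.0084). Without the 3 high in thalamus markers *Grin2d* did not pass (-0.20, edgeR adjusted *P* = 0.0745).

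*Grin3a*, whose product lowers calcium entry through the receptor, was read at 132, 132, 122, 121 and 132 CPM in cortex of WT mice and at 130.5, 120.3, 179.9, 178 and 136 CPM in cortex of Ube3aOE mice. In hippocampus it was at 182, 209, 150.1, 161 and 134 CPM in WT and at 157, 218, 238, 253 and 289 CPM in Ube3aOE. All 10 mice were higher in hippocampus, by 0.016 to 1.09 on the log2 scale, although the ranges of the regions overlapped. The joint log2 fold change was 0.51 ± 0.10 (SE, edgeR adjusted *P* = 0.00039). It stayed past the threshold without the 3 or 4 hippocampus libraries (0.47 and 0.41) and without the 2 cortex libraries (0.62).

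**Figure D3:**
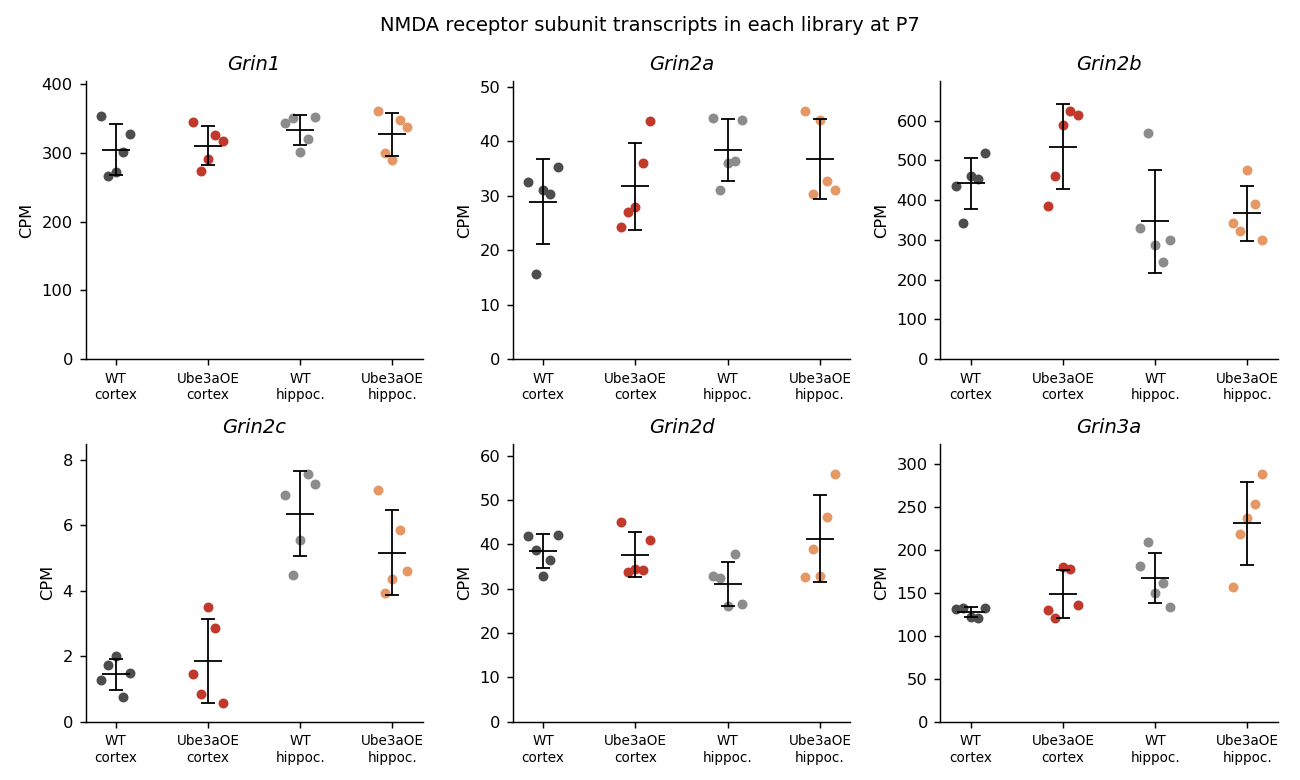
TMM-normalised CPM of each member in each of the 20 libraries, by genotype and region. Points are libraries; the horizontal mark and whiskers are the mean ± SD of 5 libraries. *Grin2c* separates the regions without overlap, and the highest *Grin2d* (56.0 CPM) and *Grin3a* (289 CPM) values are both from hippocampus of Ube3aOE mouse 10.

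Ratios between the GluN2 transcripts do not depend on library size and were compared within each mouse. *Grin2b* exceeded *Grin2a* (counts per kb) in every library, 9.61 to 15.8 times in cortex and 4.84 to 13.2 times in hippocampus. The log2 ratio of *Grin2a* to *Grin2b* was -3.56 ± 0.24 (SD) in cortex and -2.75 ± 0.45 in hippocampus, and it was higher in hippocampus in 10 of 10 mice. The mean difference within mice was 0.81 ± 0.29 (SD, n = 10), or 1.75-fold. By exact permutation of the regions within mice (two-sided), *P* = 0.00195, the smallest that 10 mice can give, and the adjusted P over the 12 ratio tests was 0.0234. The mean difference was 0.66 with the dependence on length and GC content removed, 0.81 without the mice of the 3 hippocampus libraries high in thalamus markers, 0.86 without those of all 4 and 0.82 without mice 8 and 9, each again at the smallest *P* its number of mice allows. The adjusted *P* of the exact permutation was 0.0938 without mice 8 and 9 and 0.188 without the mice of the 3 or of all 4 hippocampus libraries. None of these passed. The adjustment depends on the number of mice and on the other ratio tests.

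The log2 ratio of *Grin2a* to *Grin2d* was -1.79 ± 0.43 (SD) in cortex and -1.36 ± 0.52 in hippocampus, and it was higher in hippocampus in 7 of 10 mice. This difference of 0.44 did not pass the exact permutation test (two-sided *P* = 0.109, adjusted *P* = 0.435). All 5 WT mice moved upward, among them mouse 4 (-1.70 to -1.49), whose hippocampus library was high in thalamus markers. The 3 mice that moved downward were Ube3aOE mice 7, 9 and 10, whose hippocampus libraries held thalamus, striatum or choroid plexus markers. In the 6 mice without such a library the difference was 0.95 (exact *P* = 0.0313, the smallest 6 mice can give, adjusted *P* = 0.188). That choice left out all 3 mice that moved downward, so it cannot test the direction. The log2 ratio of *Grin2b* to *Grin2d* was 1.76 ± 0.37 in cortex and 1.39 ± 0.51 in hippocampus (difference -0.37, exact permutation *P* = 0.135, adjusted *P* = 0.435), and in those 6 mice the difference was 0.090. With the dependence on length and GC content removed it was -0.076, with 6 instead of 2 of 10 mice higher in hippocampus.

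**Figure D4:**
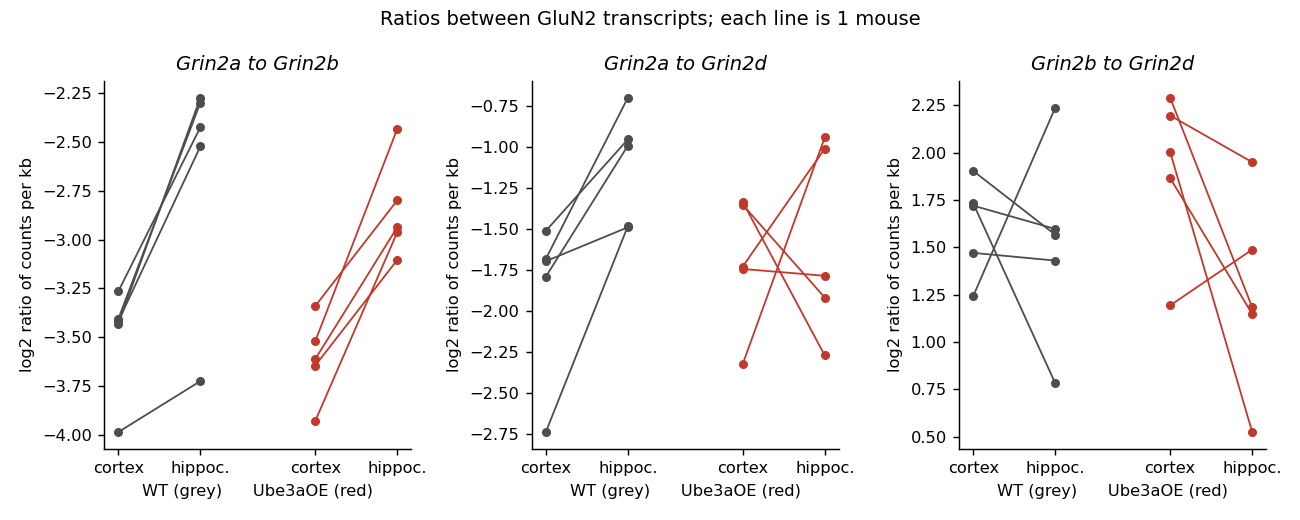
Log2 ratios of counts per kb between GluN2 transcripts in cortex and hippocampus. Each line joins the libraries of 1 mouse, grey for WT and red for Ube3aOE (n = 5 each). The *Grin2a* to *Grin2b* ratio rises from cortex to hippocampus in all 10 mice, and the *Grin2a* to *Grin2d* ratio falls in 3 Ube3aOE mice.

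Of the 12 ratio comparisons, only the regional *Grin2a* to *Grin2b* ratio passed, and no ratio was called between genotypes. In hippocampus the log2 ratio of *Grin2a* to *Grin2b* was -2.65 ± 0.61 (SD, n = 5) in WT and -2.85 ± 0.26 in Ube3aOE (exact permutation *P* = 0.563), and that of *Grin2a* to *Grin2d* was -1.13 ± 0.35 and -1.59 ± 0.58 (exact permutation *P* = 0.175). In cortex, *Grin2a* to *Grin2b* was at -3.50 ± 0.28 in WT and -3.61 ± 0.21 in Ube3aOE (exact permutation *P* = 0.476), and *Grin2a* to *Grin2d* at -1.89 ± 0.49 and -1.70 ± 0.40 (exact permutation *P* = 0.524). All of these had an adjusted P of at least 0.435, where 5 against 5 mice can reach 0.00794 before adjustment. The difference between genotypes in the regional shift was also not resolved (exact permutation *P* = 0.659 for *Grin2a* to *Grin2b* and 0.198 for *Grin2a* to *Grin2d*). Without the 4 hippocampus libraries the signs turned: the hippocampus genotype difference in *Grin2a* to *Grin2d* went from -0.46 to 0.056 and its interaction from -0.65 to 0.15, and for *Grin2a* to *Grin2b* the same values went from -0.20 to 0.045 and from -0.090 to 0.25.

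No member was called between genotypes in either region by edgeR, DESeq2 or any other setting tried. In hippocampus 0.00657% of 15220 genes tested were called and in cortex 0.00669% of 14947, which in each case was *Ube3a* alone. At an unadjusted *P* under 0.05, where 7.21% of all genes fell in hippocampus, 2 members did: *Grin3a* and *Grin2d*. In cortex, 4.44% of all genes and no member fell below it.

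In hippocampus, *Grin3a* averaged 167 ± 29.3 (SD, n = 5) CPM in WT and 231 ± 48.7 CPM in Ube3aOE. The log2 fold change was 0.46 ± 0.16 (SE, 95% confidence interval 0.11 to 0.82, edgeR adjusted *P* = 0.668). Ube3aOE mice 7 to 10 lay above all WT mice and mouse 6 lay among them. *Grin2d* averaged 31.1 ± 4.93 CPM in WT and 41.3 ± 9.88 CPM in Ube3aOE (0.41 ± 0.16 SE, interval 0.057 to 0.75, edgeR adjusted *P* = 0.668). Its highest values were in mice 9 and 10 of the Ube3aOE group and in mouse 7, whereas mice 6 and 8 lay within the WT range.

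Tissue markers also differed among these libraries. *Grin2d* was highest in the 4 libraries left out for such markers, a choice made after seeing the data. It stood there at 37.9, 38.9, 46.1 and 56.0 CPM (mice 4, 7, 9 and 10), against 26.0 to 32.9 CPM in the other hippocampus libraries. *Grin3a* did not follow the thalamus markers throughout. Mouse 10 was highest in thalamus markers and in both members. WT mouse 4 (thalamus markers 502 CPM) had 161 CPM of *Grin3a*. WT mouse 2 (thalamus markers 148 CPM) had 209 CPM of it. Thalamus markers summed to 133 to 502 CPM in WT hippocampus and 143 to 1195 CPM in Ube3aOE hippocampus, 1 of 5 tested reached an unadjusted *P* under 0.05 and none passed adjustment. Of the thalamus markers, *Prkcd* had a lower median in Ube3aOE than in WT (41.8 against 45.4 CPM), and the others had a higher one. *Gbx2*, the lowest of them, stood at 0.062 to 5.52 CPM in WT and 0.060 to 20.4 CPM in Ube3aOE. GABAergic interneuron markers summed to 644 to 724 CPM in WT and 470.4 to 1158 CPM in Ube3aOE, with the highest value in mouse 9 and the lowest in mouse 10, and none of the 10 reached an unadjusted *P* under 0.05. Of 5 choroid plexus markers tested, 3 did (median log2 fold change 1.94), with sums of 10.3 to 32.4 CPM in WT and 8.33 to 1950.0 CPM in Ube3aOE. No striatum marker did (median 1.41), with sums of 46.2 to 67.4 CPM in WT and 42.2 to 516 CPM in Ube3aOE. Of 6 excitatory neuron markers, 1 did (median -0.29), and their sum was 3658 to 4932 CPM in WT and 3059 to 4689 CPM in Ube3aOE, where mice 7, 9 and 10 lay below all WT mice. Without mouse 10, the log2 fold changes were 0.37 for *Grin3a* and 0.27 for *Grin2d*. Without the 3 libraries high in thalamus markers they were 0.36 and 0.34, and without the 4 libraries above they were 0.22 and 0.15 (edgeR adjusted *P* = 0.999 for both). With the dependence on length and GC content removed, *Grin3a* stood at 0.36 and *Grin2d* at 0.24, and *Grin2d* no longer fell below an unadjusted P of 0.05, whereas *Grin2c* (-0.41) did. The part of these tissues in the 2 differences was not tested further.

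**Figure D5:**
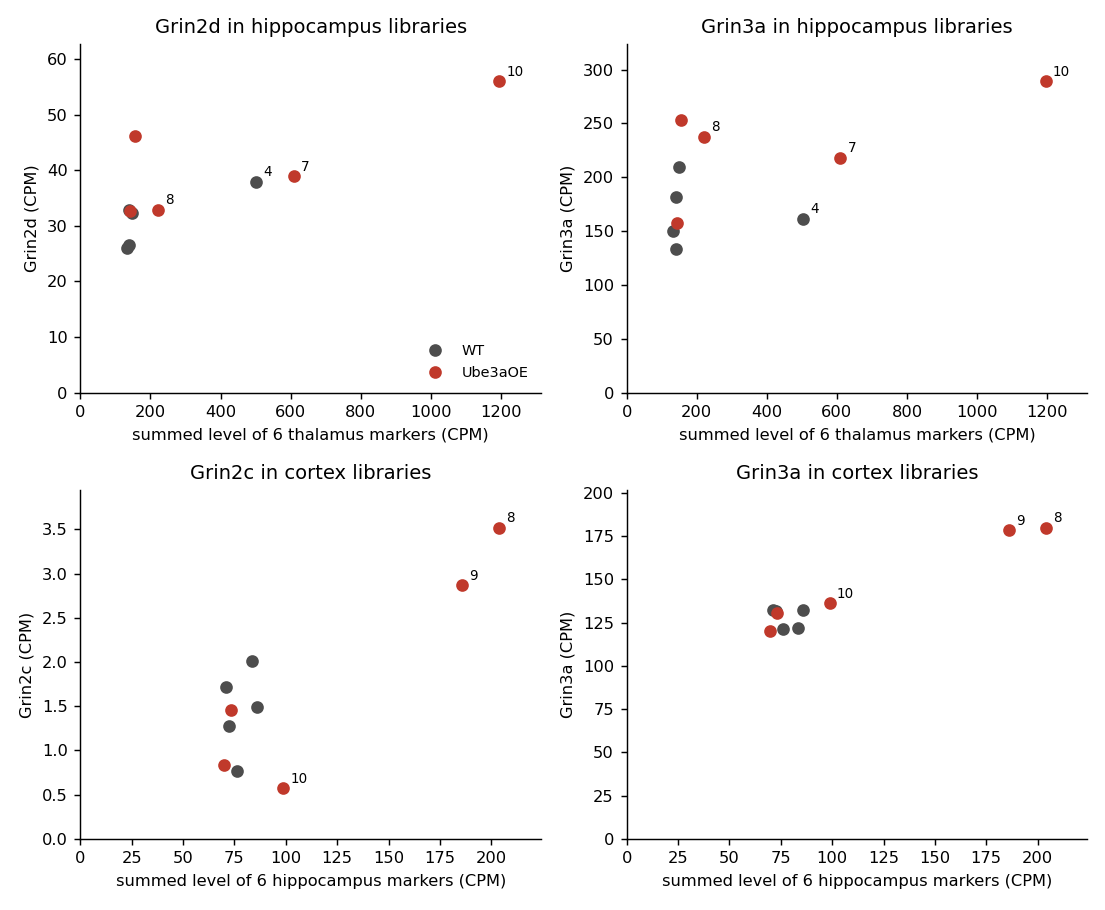
Level of a member (CPM) in each library against the summed level of 6 markers of a neighbouring tissue (CPM): *Grin2d* and *Grin3a* against thalamus markers in hippocampus libraries, and *Grin2c* and *Grin3a* against hippocampus markers in cortex libraries (n = 10 each; numbers are mice). Mouse 10 is highest on both axes for *Grin2d* and *Grin3a*, and mice 8 and 9 are highest on both axes in cortex.

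In hippocampus the other 4 members gave intervals that spanned 0. The log2 fold change, Ube3aOE over WT, was -0.030 (95% confidence interval -0.19 to 0.13) for *Grin1*, -0.062 (-0.37 to 0.24) for *Grin2a*, 0.078 (-0.43 to 0.59) for *Grin2b* and -0.30 (-0.71 to 0.11) for *Grin2c*. Without the 3 and the 4 hippocampus libraries, the *Grin2c* estimate moved to -0.067 and -0.086, that of *Grin2a* to 0.075 and 0.20 and that of *Grin2b* to 0.12 and 0.13. The *Grin2b* estimate was -0.016 with the dependence on length and GC content removed.

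In cortex the log2 fold change was 0.030 (-0.15 to 0.21) for *Grin1*, 0.13 (-0.35 to 0.62) for *Grin2a*, 0.28 (-0.041 to 0.60) for *Grin2b*, 0.37 (-0.61 to 1.35) for *Grin2c*, -0.026 (-0.23 to 0.18) for *Grin2d* and 0.23 (-0.0091 to 0.46) for *Grin3a*. The *Grin3a*, *Grin2c* and *Grin2b* estimates moved without the cortex libraries of mice 8 and 9, when *Grin3a* stood at 0.012, *Grin2c* at -0.60 and *Grin2b* at 0.14. The *Grin2b* estimate was 0.12 with the dependence on length and GC content removed, and that of *Grin2a* was 0.028. *Grin3a* in the other 3 Ube3aOE cortex libraries was 120.3 to 136 CPM, against 121 to 132 CPM in WT.

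The genotype difference was also compared between regions as an interaction, in which edgeR called 0% of 15661 genes, no member and, by DESeq2, again no member. *Grin2d* had the only unadjusted *P* under 0.05 among the members, a value reached by 3.77% of all genes (log2 0.44 ± 0.20 SE, edgeR adjusted *P* = 0.997). Without the 4 hippocampus libraries above it was 0.19 (edgeR adjusted *P* = 1.0).

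Of 41 genes whose products scaffold, traffic, modify or signal from NMDA receptors or handle their co-agonists, 39 were tested, and 26 were called between regions, 11 higher and 15 lower in hippocampus (66.7%, against 50.9% of all genes; median log2 fold change -0.027 against -0.0053 for all genes). The largest increases were in *Rasgrp1* (1.75 ± 0.15 SE) and *Rasgrf1* (1.34 ± 0.19), exchange factors that activate Ras downstream of the receptor, and in *Camk2a* (0.93 ± 0.12), the kinase that binds GluN2B. *Lin7a* (0.52 ± 0.10), an adaptor in receptor transport, and *Neto1* (0.46 ± 0.11), an auxiliary protein of glutamate receptors, were also higher. Among those lower in hippocampus were *Rasgrf2* (-0.98 ± 0.11) and the scaffolds *Dlg2* (-0.61 ± 0.090) and *Dlg1* (-0.50 ± 0.075), which anchor receptors at the postsynaptic density. *Lin7b* (-0.40 ± 0.090), a relative of *Lin7a*, was lower while *Lin7a* was higher. The related exchange factors *Rasgrf1* and *Rasgrf2* likewise differed in direction. Their edgeR adjusted *P* values ranged from 5.7e-08 to 0.0021. None of the 39 was called between genotypes in either region or in the interaction by edgeR, with 5 in hippocampus, 2 in cortex and 2 in the interaction at an unadjusted *P* under 0.05, and DESeq2 called none as well.

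Across the 20 libraries, the genes whose log2 CPM followed each member most closely differed from member to member (Pearson r as a description; the libraries share regions, mice and tissue content). They were *Padi2* (0.969), *Nrp2* (0.956) and *Pwwp2b* (0.952) for *Grin2c*, and *Tox2* (0.931), *AW551984* (0.910) and *Sez6l* (0.904) for *Grin3a*. For *Grin2b* they were *Med13* (0.945), *Pclo* (0.935) and *Usf3* (0.931). *Slc6a9* (0.918), the glycine transporter GlyT1, led for *Grin2d*, followed by *Cacna2d2* (0.902) and *Chga* (0.891). For *Grin2a* they were *St8sia5* (0.896), *Fcrls* (0.874) and *Dlgap1* (0.870), and for *Grin1* they were *Ppp1r10* (0.887), *Nomo1* (0.877) and *Ncdn* (0.870).

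With the mean of each group taken out, the leading genes were *Ntrk3* (0.940) for *Grin2b*, *Brinp3* (0.934) for *Grin3a*, *Nomo1* (0.914) for *Grin1*, *Rasgrp1* (0.909) for *Grin2a*, *Slc6a9* (0.891) for *Grin2d* and *Nrp2* (0.848) for *Grin2c*. *Slc6a9* led for *Grin2d* in both measures. The members followed each other less. Among them r ranged from -0.55 (*Grin2b* and *Grin2c*) to 0.60 (*Grin2c* and *Grin3a*) over all libraries, and from -0.26 (*Grin2a* and *Grin2d*) to 0.44 (*Grin2d* and *Grin3a*) with the group means taken out.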

How the data were processed

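Poly(A) RNA libraries (TruSeq Stranded mRNA, per the labels) were made from 20 samples. The deposited values are whole read counts per gene, which the authors made with HISAT2 2.1.0 and HTSeq 0.11.2 on GRCm38 (submitters' processing notes). Whether the counting used strand, and the read length, are not given in the sources used here. The 5 HTSeq summary lines were left out per library (reads on no feature 4.46% to 7.12%, ambiguous 0.756% to 0.879%, not unique 10.3% to 13.7%, not aligned 2.74% to 8.66%).

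Genes were tested with edgeR 4.0.16 (R 4.3.3): TMM, filterByExpr, robust quasi-likelihood F test, Benjamini-Hochberg adjustment, threshold 0.05. Genotypes were compared within each region (10 libraries), and region and interaction over 20. CPM used TMM library sizes. Ratios were log2 ratios of counts per kb of merged exons (GENCODE M21; 0.5 added to each count), tested by exact permutation. *P* values measure the spread between the animals' libraries. The edgeR fits were tested on simulated data. The coding stretches of the other members are not reported here.

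Libraries with the same mouse number in their labels were taken as 1 animal, and this number pairs the regions. Their deviations from group means correlated at a median of 0.215 (-0.0367 to 0.248, above 0.1 in 9 of 10 mice). Correlations between libraries of unlike numbers are not reported here, so these values alone cannot show the pairing. Alternatives were DESeq2 1.42.0, tests of all genes without the low-count filter, a covariate for labelled sex, the replicate block, leaving out each mouse and, chosen after seeing the data, removal of trends on length and GC content (splines, 5 degrees of freedom) and leaving out libraries with summed thalamus, striatum or choroid plexus markers over 300 CPM (hippocampus) or hippocampus markers over 150 CPM (cortex). Members, partner list and marker lists were chosen with earlier results of these data known. All members, partner genes among the 8 largest called changes in each direction, and the 3 genes most correlated with each member (mean of at least 5 CPM, or 10 CPM with group means taken out, where the leading gene is given; predicted genes skipped) are named.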

Additional observations from a re-analysis of the deposited data

Results flagged for a closer look

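Of 36 comparisons of a lowest or highest value with the other 4 in its group (the 6 members and 3 ratios in 4 groups), 5 stood further apart than Dixon's 95% limit for 5 samples (a gap over 0.71 of the range), where about 1.8 would by chance. The ratios were computed from the same member counts, so the 36 comparisons are not independent and the 5 are not separate findings. All 5 belonged to WT mouse 2. In cortex its *Grin2a* level of 15.6 CPM was the lowest, and with it the log2 ratios of *Grin2a* to *Grin2b* (-3.99) and of *Grin2a* to *Grin2d* (-2.74); this library had the fewest reads on genes (14191093, or 69.7% of reads, against 76.0% to 81.2% elsewhere). In hippocampus its *Grin2b* level of 569 CPM was the highest and its log2 ratio of *Grin2a* to *Grin2b* (-3.72) the lowest. Neocortex markers summed to 545 CPM and hippocampus markers to 336 CPM in that library, the highest and the lowest of the WT hippocampus group. The part of these in the values was not tested. Without mouse 2, the log2 fold change of *Grin2b* between regions was -0.61 and the *Grin2a* to *Grin2b* ratio differed between regions by 0.87.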

How the results depend on the processing

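Of the 6 members, *Grin2c* and *Grin3a* kept their regional call and direction in every alternative run, including those chosen after seeing the data. The count of members called between regions lay between 2 and 4, and those called by genotype or in the interaction stayed at 0. With the mouse as a replicate block, *Grin1* joined the calls between regions (0.11, adjusted *P* = 0.0307) and no other member's call changed, whereas the block with the dependence on length and GC content removed added *Grin2a* (0.47) and not *Grin1*. With 1 mouse left out at a time, 3 to 4 members and 23 to 28 partner genes were called between regions. The place of all 6 subunits in the order of levels was kept, except with the longest coding transcript as the length and without WT mouse 2, where 4 kept it (range 4 to 6 with 1 mouse left out). The regional *Grin2a* to *Grin2b* ratio (0.77 to 0.87 with 1 mouse left out) lost its adjusted call without the 3 (0.81) and 4 (0.86) hippocampus libraries and the 2 cortex libraries (0.82), where fewer mice limit P.

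The sign of uncalled values turned in places. With 1 mouse left out, log2 fold changes between genotypes in hippocampus ran from -0.063 to 0.016 for *Grin1*, -0.15 to 0.00035 for *Grin2a* and -0.028 to 0.34 for *Grin2b*. In cortex they ran from -0.019 to 0.091 for *Grin1*, -0.026 to 0.22 for *Grin2a*, -0.0057 to 0.59 for *Grin2c* and -0.10 to 0.012 for *Grin2d*, and in the interaction from -0.11 to 0.0046 for *Grin1*, -0.37 to 0.0050 for *Grin2a* and -0.31 to 0.14 for *Grin2b*. The cortex genotype difference in *Grin2a* to *Grin2d* ran from -0.026 to 0.34. *Grin2b* between genotypes in hippocampus was -0.016 with the dependence on length and GC content removed. Without the 3 hippocampus libraries, *Grin2a* between genotypes was 0.075 and the interaction of *Grin2a* to *Grin2b* 0.089. Without the 4, *Grin2a* was 0.20 between genotypes and 0.075 in the interaction, and the ratios between genotypes in hippocampus were 0.045 (*Grin2a* to *Grin2b*), 0.056 (*Grin2a* to *Grin2d*) and 0.011 (*Grin2b* to *Grin2d*), those in the interaction 0.25 (*Grin2a* to *Grin2b*) and 0.15 (*Grin2a* to *Grin2d*), and the regional *Grin2b* to *Grin2d* ratio 0.090. Without the 2 cortex libraries, *Grin2c* was -0.60 between genotypes in cortex and 0.29 in the interaction, *Grin2d* 0.054 in cortex, and *Grin2a* to *Grin2b* 0.010 between genotypes in cortex. The cause was not tested. *Grin2c* had 9 to 59 reads per cortex library, the fewest of the members.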
